A study of Homo sapiens with 4 samples.

Results

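AP-1 is a family of transcription factors built as pairs of basic leucine zipper proteins, a JUN protein with a FOS, ATF or second JUN protein. The genes examined here are its FOS members (FOS, FOSB, FOSL1, FOSL2), its JUN members (JUN, JUNB, JUND), the stress-induced partner ATF3, the zinc finger factor EGR1 and the nuclear regulator IER2. They were chosen by name as immediate-early genes; the rule uses no measured value, but it was set with earlier results of these data known. Of the 10 genes, 9 have a row among the 11597 genes of the authors' deposited table, and FOSB has none; the filter behind the table is not stated, and its lowest mean normalized count is 5.06.

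The libraries came from MOLM13, an established human acute myeloid leukaemia line. The 2 libraries of the BTG2 group had the genotype label BTG2 OE, for overexpression, and received a BTG2 cDNA by lentivirus. The 2 control libraries were labelled WT and received the same vector, empty, so both groups carried its EF1α promoter, puromycin resistance and ZsGreen cassette and both were harvested on day 3. No drug selection, sorting or clonal line is stated. Single-library values are not analysed here, which leaves depth per library unknown, and no member can be shown sample by sample. Each value is the authors' pooled estimate with its standard error (SE), and whether the libraries of a group were separate cultures is not stated, so p-values may measure technical spread only.

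Immediate-early genes are switched on within minutes of a signal, through serum response factor with its ELK partners, through CREB, and through MAP kinases that act on these factors. Their messages are then removed quickly, often with the help of AU-rich elements in the 3′ untranslated region (UTR), which bind proteins such as ZFP36 that bring in the CCR4-NOT deadenylase. BTG2, itself an immediate-early gene, binds the same deadenylase, and the study's design text asks about its role in mRNA stability. In myeloid cells AP-1 factors are known for their part in monocyte differentiation and in inflammatory gene expression.

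The AU-rich stretches of the members were read from each gene's longest complete coding transcript (GENCODE release 29, GRCh38, the hg38 build). Shown are the 30 bases of 3′ UTR that hold the most copies of ATTTA, which in the RNA reads AUUUA, for the FOS and JUN genes the results turn on, 5′ to 3′ on the coding strand, with each ATTTA in capitals.
FOSL2 (chr2:28416348-28416377, plus strand): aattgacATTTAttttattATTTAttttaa
FOS (chr14:75282057-75282086, plus strand): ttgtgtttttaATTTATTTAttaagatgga
JUNB (chr19:12793059-12793088, plus strand): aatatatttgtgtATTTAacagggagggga
JUND (chr19:18279998-18280027, minus strand): tcgattctgccctATTTAtgtttctactcg
JUN (chr1:58781336-58781365, minus strand): ttccagaaaggatATTTAagaaaatacaat
The FOS and FOSL2 windows each hold 2 copies, overlapping in FOS and separate in FOSL2, and both contain the longer form TTATTTATT, found in no other listed member. The JUNB, JUND and JUN windows hold 1 copy each.

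With BTG2, 1 member was called higher and 1 lower, and the other 7 did not pass the test. FOSL2 rose and JUNB fell, both by modest amounts. The test is the authors' adjusted p under 0.05, and over the whole table it called 8.11% of genes, 3.64% higher and 4.47% lower. With recentring on the median abundant gene the balance turned, from 422 higher and 518 lower to 500 higher and 433 lower. Among genes at or above the median mean normalized count of 151, the share called was 13.6%. Of the 5 members above that median 2 were called, and of the 4 members below it 0 were called. Of the 9, 3 had an unadjusted p under 0.05, as did at least 1553 of the 11597 genes. JUND, at an unadjusted p of 0.0227 in the authors' fit, ranked 1553 by p. Member counts this small cannot be read as more or fewer than the background. In these bulk libraries fewer expressing cells and less RNA per cell cannot be told apart.

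FOSL2 (ENSG00000075426.12), which codes for the FOS-related protein FRA2, lies at chr2:28392448-28417312 on the plus strand. Its log2 fold change was 0.38 (SE 0.11, adjusted p = 0.0105) at a mean normalized count of 467 per the authors' deposited table, a 1.30-fold increase with a 95% interval of 1.12 to 1.51. By p it ranked 629 of the 11597 genes. The adjusted p lies just above 0.01, and it became 0.107 when scores were scaled by the interquartile range of all scores, an alternative chosen after seeing the data. Against a log2 fold change of 0.2 in place of 0, the adjusted p was 0.789.

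JUNB (ENSG00000171223.6), a JUN protein known to restrain proliferation, lies at chr19:12791496-12793315 on the plus strand. It fell by 0.26 on the log2 scale (SE 0.08, adjusted p = 0.0246) at a mean normalized count of 1202 per the authors' deposited table, to 0.836-fold with a 95% interval of 0.748 to 0.934. Fold changes recentred on the median abundant gene, a shift of -0.03, gave JUNB -0.23 with an adjusted p of 0.0557, past the limit, and the scaled scores gave 0.177. HOOK2 overlaps JUNB on the opposite strand. It had a log2 fold change of -0.42 and an adjusted p of 0.528 at a mean count of 55.8 per the authors' deposited table. FOSL2 is overlapped by the antisense gene FLJ31356 and the intronic gene AC104695.3 on the same strand, and IER2 by the antisense gene AC011446.2. None of these has a row, and the sources used here do not say whether reads were counted by strand.

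JUND and JUN, the other JUN genes, did not pass the test. JUND (ENSG00000130522.6), the most constitutive JUN protein, had a log2 fold change of -0.24 (SE 0.11, adjusted p = 0.170) at a mean count of 1001 per the authors' deposited table. That estimate is close to the one of JUNB, and the difference of JUNB minus JUND was -0.01 with a 95% interval of -0.28 to 0.25. The SE of JUND was larger than that of 97.8% of the 500 genes nearest to it in mean count, whose median SE was 0.08. JUN (ENSG00000177606.8), which codes for c-JUN, stood at 0.48 (SE 0.64, adjusted p = 0.836) with a mean count of 23.8 per the authors' deposited table, and its interval from -0.78 to 1.74 spans changes in either direction.

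Among the remaining FOS genes neither passed. FOS (ENSG00000170345.10), the archetypal immediate-early gene, had a log2 fold change of -0.18 (SE 0.21, adjusted p = 0.790) at a mean count of 158 per the authors' deposited table. FOSL1 (ENSG00000175592.9), which codes for FRA1, had one of -0.22 (SE 0.54, adjusted p = 0.931) at a mean count of 22.5 per the authors' deposited table. The 95% interval of FOS runs from 0.668-fold to 1.17-fold, and that of FOSL1 from 0.410-fold to 1.80-fold.

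The 3 members outside the FOS and JUN families had negative values that did not pass. ATF3 (ENSG00000162772.17), a stress-induced repressor or activator depending on its partner, stood at -0.36 (SE 0.22, adjusted p = 0.436) with a mean count of 99.8 per the authors' deposited table. EGR1 (ENSG00000120738.8), a zinc finger factor induced by growth signals and during monocyte differentiation, stood at -0.30 (SE 0.37, adjusted p = 0.811) with a mean count of 48.8 per the authors' deposited table. IER2 (ENSG00000160888.7), a nuclear protein induced early by growth factors, was the most precisely measured member, at -0.08 (SE 0.07, adjusted p = 0.665) with a mean count of 1088 per the authors' deposited table. The 95% interval of IER2, from 0.856-fold to 1.04-fold, lies above the 0.836-fold of JUNB. The difference of JUNB minus IER2, however, was -0.18 with an interval of -0.39 to 0.04, which includes 0.

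**Figure D1:**
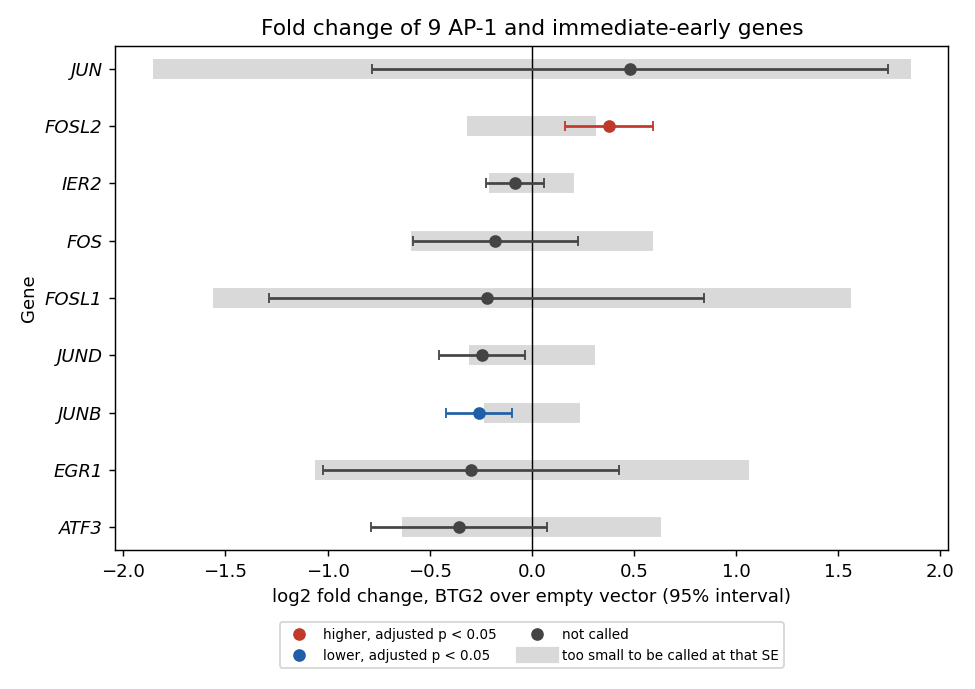
Points are the log2 fold changes of the 9 listed members, BTG2 over empty vector, with 95% intervals from the authors' SE; grey bars span the values too small to be called at that SE. FOSL2 (0.38) lies above its bar and JUNB (-0.26) below its bar, while the other 7 lie inside theirs.

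What could be called varied widely among the members. The smallest absolute score of any called gene was 2.88, and this multiple of its SE is the change each member needed. For IER2 it was a 1.16-fold change, for JUNB 1.18-fold, for JUND 1.24-fold and for FOSL2 1.24-fold. FOS needed 1.51-fold, ATF3 1.55-fold and EGR1 2.09-fold, and FOSL1 and JUN needed 2.96-fold and 3.62-fold. For the members of low count, changes as large as those of FOSL2 or JUNB were therefore not detectable with these errors.

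**Figure D2:**
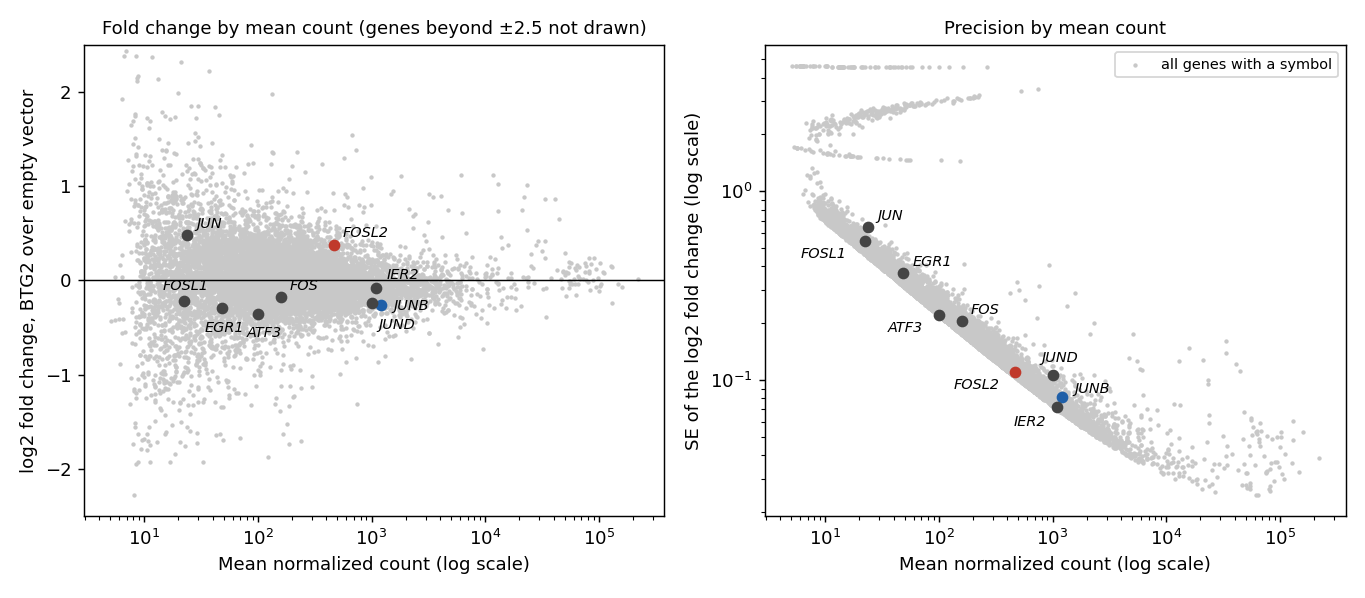
Each grey point is a gene with a symbol, plotted by mean normalized count (log scale) against its log2 fold change (left) or the SE of that fold change (right, log scale), with the 9 members named and coloured as called higher (red), lower (blue) or not called (dark grey). The SE of the members falls from 0.64 for JUN at a mean count of 23.8 to 0.07 for IER2 at 1088.

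Members were compared with each other by the difference of their log2 fold changes, with both SEs taken as independent. Of 36 pairs, 5 had a 95% interval that excludes 0, and FOSL2 was in all 5. FOSL2 exceeded JUNB by 0.64 (interval 0.37 to 0.91), JUND by 0.62 (0.32 to 0.92) and IER2 by 0.46 (0.20 to 0.72) on the log2 scale. It exceeded ATF3 by 0.73 (0.25 to 1.22) and FOS by 0.56 (0.10 to 1.02). When the intervals were widened to hold jointly over the 36 pairs, 3 excluded 0, those of FOSL2 with JUNB, with JUND and with IER2. Within the FOS family FOSL2 and FOS thus differed only before that widening, while no pair without FOSL2 differed beyond its interval. All these intervals use the deposited SEs. The scaling by the interquartile range of all scores, with which neither FOSL2 nor JUNB was called, was not applied to them.

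By sign alone, 7 of the 9 log2 fold changes were negative and 2 positive, FOSL2 and JUN. The median of the members was -0.22, against 0.00 over all genes and -0.03 over genes at or above the median count. Negative values made up 49.9% of all genes and 55.7% of the abundant ones. This is a description of 9 values, most of which have intervals that include 0.

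The members differ in level by more than an order of magnitude. Whether short or long reads were counted is not clear from the labels, so levels are given per kilobase of the longest coding transcript and as plain counts. On the per-kilobase scale JUNB had the highest mean normalized count, 660, followed by JUND at 537 and IER2 at 371. The IER2 value rests on a transcript of 2934 bases, and its shortest coding transcript has 1291, so its place among these 3 depends on the transcript chosen. FOS at 73.3 and FOSL2 at 69.6 were close together, ATF3 followed at 49.1, and EGR1 (15.5), FOSL1 (13.5) and JUN (6.73) were lowest. As plain counts the same 3 genes led, at 1202 for JUNB, 1088 for IER2 and 1001 for JUND, and FOSL2 stood well above FOS, 467 against 158. The spread over libraries is not known, so neighbours in these orders cannot be said to differ.

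The counts of the JUN family were thus almost entirely those of JUNB and JUND. Per kilobase, JUNB made up 54.8% of the summed JUN family level and JUND 44.6%, with JUN at 0.559%. In the FOS family the per-kilobase shares were 46.9% for FOS, 44.5% for FOSL2 and 8.62% for FOSL1, whereas of plain counts FOSL2 had 72.1%. The order of FOS and FOSL2 therefore depends on the length correction, since the FOSL2 transcript of 6708 bases is longer than the FOS transcript of 2158 bases. All these shares are of the deposited counts. The housekeeping gene GAPDH had a mean count of only 40.2, against 54680 for ACTB, per the authors' deposited table. Whether the counts follow transcript levels for every gene, JUN among them, was not tested.

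Most members have few introns, a feature their choice did not use. In their longest coding transcripts JUN, JUNB, JUND and IER2 have 1 exon, EGR1 has 2, and FOS, FOSL1, FOSL2 and ATF3 have 4, against a median of 9 over 10470 coding genes. For IER2 the 3 annotated coding transcripts have from 1 to 2 exons, so its place among single-exon genes depends on the transcript chosen. Single-exon genes as a class, 219 in the table, had 9 called higher and 9 called lower (8.22% in all) and a median log2 fold change of -0.01. For the 10251 genes with 2 or more exons the share called was 7.84% and the median -0.01. Single-exon genes were of lower mean count, with a median of 85.6 against 172. At or above the table's median count, where JUNB lies, 16.9% of 77 single-exon and 12.5% of 5532 multi-exon genes were called, both with a median of -0.03.

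The density of ATTTA in the 3′ UTR, searched on the coding strand with overlaps counted, ranged widely too. FOS had 5 copies in 806 bases, or 6.20 per kb, more than 95.2% of genes with a 3′ UTR. JUNB had 2 copies in 500 bases (4 per kb, above 84.9% of genes) and FOSL2 had 9 in 4864 bases (1.85 per kb, above 53.5%). ATF3 (2.45 per kb) and JUN (2.33 per kb) followed FOS and JUNB, FOSL1 (1.5), JUND (1.47) and EGR1 (0.810) had 1 copy each, and IER2 had 0. At least 1 copy was found in 8 of the 9 members and in 72.0% of the 10470 coding genes. TTATTTATT was found in FOS and FOSL2 and in 8.94% of coding genes.

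The members' fold changes were not in the order of density, but most were not called and the low-count ones were imprecise. FOS, the densest, did not pass, and its 95% interval of 0.668-fold to 1.17-fold includes the 0.836-fold of JUNB. IER2, with 0 copies, did not pass either. The FOSL2 and JUNB windows printed above belong to genes that moved in opposite directions. The part of density in the members' values was not tested. ATTTA-bearing genes were divided into 3 classes of equal size by density. In the densest class, above 3.19 per kb, 1.87% were called higher and 4.97% lower, with a median of -0.05. The corresponding values in the least dense class, up to 1.76 per kb, were 3.82% called higher, 3.14% called lower and a median of 0.04. The middle class had 2.67% called higher, 4.18% called lower and a median of -0.0009. Across these 3 classes the share called lower thus rose with density and the share called higher fell. The 2896 genes without ATTTA, IER2 among them, had 3.52% called higher, 6.77% called lower and a median of -0.02, outside that order. Their median mean count was also higher, 241 against 141, 152 and 161 from the least dense to the densest class. The part of mean count in these shares was not tested. Of the 936 genes with TTATTTATT, 17 were called higher and 23 lower, 4.27% in all, with a median of 0.01. Over all coding genes the share called was 7.85%, at a median mean count of 170 against 112 for the 936. A match to these letters is a description and shows no bound protein.

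**Figure D3:**
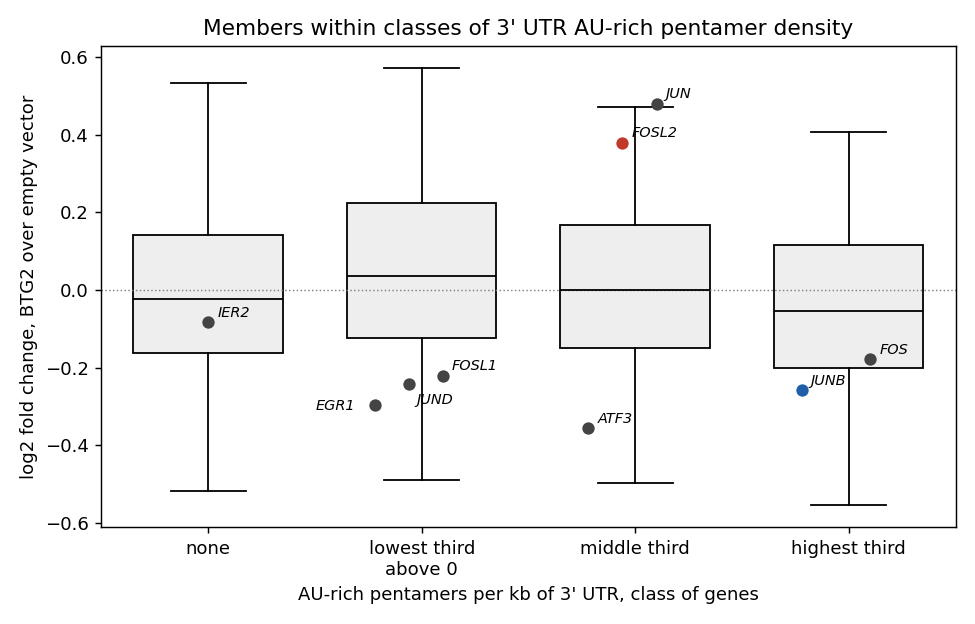
Boxes show the log2 fold changes of coding genes by class of AUUUA pentamers per kb of 3′ UTR (median, quartiles, whiskers from the 5th to the 95th percentile), and points are the 9 members, with FOSL2 called higher (red) and JUNB called lower (blue). Medians run from 0.04 in the least dense of the 3 classes above 0 to -0.05 in the densest, and all members but JUN (0.48) lie within the whiskers of their class.

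Other genes of the pathway were examined through 7 lists of dimer partners, co-induced genes, upstream factors and targets, with 109 listed genes. Of these 3 were called higher and 5 lower, 7.34% in all, with a median of -0.04, close to the background share of 8.11%. Recentring on the median abundant gene gave 4 called higher and 4 lower. With scores scaled by their interquartile range 3 of the 8 were called, ATF5, ATF4 and TNF. Medians of single lists ranged from -0.17 for the feedback inhibitors of MAP kinases to 0.07 for the serum response and CREB factors.

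Among 12 other basic leucine zipper proteins that can pair with AP-1 factors, 1 rose and 2 fell, with a median of -0.11. Only these 3 had an unadjusted p under 0.05. ATF5, a stress-response factor, fell by 1.12 on the log2 scale (SE 0.18) per the authors' deposited table. ATF4, the main effector of the integrated stress response, fell by 0.19 (SE 0.04) per the authors' deposited table. MAFG, a small MAF protein, rose by 0.41 (SE 0.14, adjusted p = 0.0345) per the authors' deposited table.

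Of 30 other immediate-early genes 3 fell, 0 rose and 27 did not pass, with a median of -0.09. An unadjusted p under 0.05 was found for 7 of the 30, all with negative values. The exact share over all genes was not computed, but at least 1553 of the 11597 genes had an unadjusted p under 0.05. The counts at this limit in the lists cannot be read as enrichment. The cytokine gene TNF fell by 0.71 (SE 0.16, adjusted p = 0.000404) per the authors' deposited table. ZFP36, which codes for the AU-rich element-binding protein tristetraprolin, fell by 0.25 (SE 0.07, adjusted p = 0.0107) per the authors' deposited table, a size near that of JUNB. MYC fell by 0.13 (SE 0.05, adjusted p = 0.0441) per the authors' deposited table, and lost the call with recentring, at an adjusted p of 0.158. Another 10 genes of this list, among them EGR2, EGR3, NR4A3 and CCN1, have no row, and 18 of the 30 lie below the median mean count.

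Factors that induce immediate-early transcription gave 1 call in all. Of 12 serum response and CREB factors 1 rose, CRTC1, a CREB coactivator, by 0.68 (SE 0.21, adjusted p = 0.0212) per the authors' deposited table. An unadjusted p under 0.05 was found for 3 of the 12. SRF itself stood at 0.10 (SE 0.14) and its actin-regulated coactivator MRTFA at 0.05 (SE 0.10) per the authors' deposited table. Of 23 MAP kinases and their effectors 0 were called and 0 had an unadjusted p under 0.05, with RPS6KA1 at 0.14 (SE 0.07), MAPKAPK2 at -0.03 (SE 0.09) and MAPKAPK3 at -0.04 (SE 0.09) per the authors' deposited table.

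The 9 feedback inhibitors of MAP kinase signalling included 0 called genes and 1 with an unadjusted p under 0.05, though 8 of 9 values were negative. The phosphatase genes DUSP6 and DUSP7 stood at -0.25 (SE 0.13) and 0.02 (SE 0.09), and the Sprouty gene SPRY2 at -0.25 (SE 0.12), per the authors' deposited table. Of 12 cofactors and turnover factors 0 were called, and 0 had an unadjusted p under 0.05. COPS5, a JUN coactivator, stood at 0.00 (SE 0.07) and the ubiquitin ligase gene COP1, whose product targets JUN, at -0.03 (SE 0.12) per the authors' deposited table.

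Of 11 genes described as AP-1 targets 1 rose and 0 fell, with a median of -0.06, and 3 had an unadjusted p under 0.05. The nuclear lamin gene LMNA rose by 0.30 (SE 0.09, adjusted p = 0.00941) per the authors' deposited table. VIM and TIMP1, for vimentin and a metalloproteinase inhibitor, stood at -0.05 (SE 0.06) and 0.06 (SE 0.07) per the authors' deposited table. At an adjusted p limit of 0.1 the list had 2 genes called higher and 1 lower. Adjustment over abundant genes gave 1 higher and 1 lower, and recentring gave 2 higher and 0 lower.

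**Figure D4:**
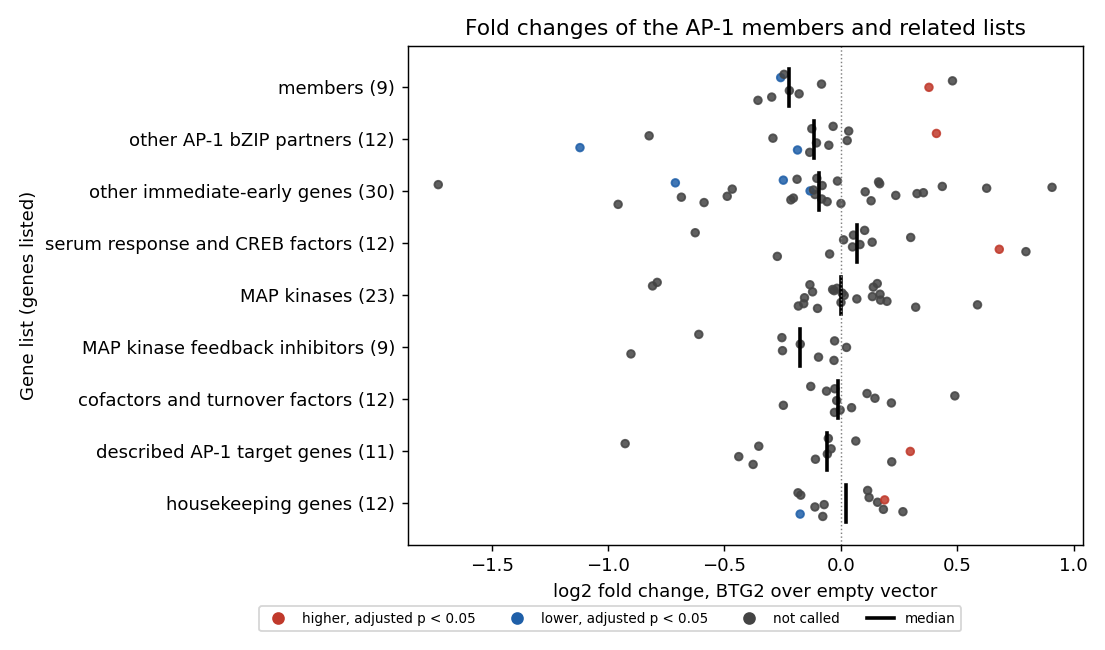
Each point is a gene's log2 fold change, BTG2 over empty vector, by list with the number of genes listed, coloured as called higher (red), lower (blue) or not called (dark grey), with a black bar at the list's median. The members' median of -0.22 lies to the left of the other medians, which run from -0.17 to 0.07, and each list's points spread to both sides of 0.

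As checks of the libraries, BTG2 itself rose 32.3-fold per the authors' deposited table, in which cDNA and endogenous reads are not separated. Of 12 housekeeping genes 1 rose and 1 fell, PPIA by 0.19 and B2M at -0.17, with ACTB at -0.08 per the authors' deposited table, so changes of the size of MYC or ATF4 were also found among genes used as references. Of 12 myeloid markers 10 are listed, without KIT and CD14, and MPO (-1.14), LYZ (-0.39), CEBPA (-0.26) and FLT3 (0.23) passed the test per the authors' deposited table. Their part in the results for the AP-1 genes was not tested. Of 10 markers of other cell types only KRT18 (-0.24) and PECAM1 (-0.01) have a row per the authors' deposited table, and neither passed.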

How the data were processed

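Poly(A) RNA of MOLM13 cells was sequenced from 2 libraries with BTG2 and 2 with empty vector, grouped by sample title. Per the submitters' processing notes minimap2 and hg38 were used; the sources used here give no counter, annotation, program or filter. The mean column is a signal, the authors' mean normalized count pooled over libraries, by the file headers' wording. Fold changes and SEs are log2 values as deposited by the authors, the score is the deposited fold change over its SE (within 2.72e-07), and Benjamini-Hochberg adjustment of the deposited p-value returns the deposited adjusted p-value (within 1.48e-06). The calls are those of the authors' fit across all 11597 genes; tests computed here from the deposited columns serve only as alternatives, and differences between members are given as intervals.

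The members and lists were chosen with earlier results of these data known. Named are all listed members and, per list, called genes (at most 8), filled up to 3 by mean count; 1 gene so chosen is not reported here. Intervals are normal, at 95%. With 1 comparison no likeness of patterns was computed. Transcripts came from GENCODE release 29, matched without version numbers, which differ from the table's. The steps for calls and adjustments were run on simulated scores drawn with the deposited SEs. The central spread of the deposited scores was wider than such draws give, by a factor of 1.25. That check therefore says nothing on whether the member calls hold. Alternatives were other adjusted p limits (0.01 and 0.1), abundant genes only, recentring, a null of 0.2, scaled scores and all coding transcripts. Python 3.11.15, pandas 2.3.3 and scipy 1.17.1 were used.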

Additional observations from a re-analysis of the deposited data

How the results depend on the processing

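The 2 member calls were near the limit. None of the 9 members was called at an adjusted p limit of 0.01 (0 called; FOSL2 0.38, JUNB -0.26), against an absolute log2 fold change of 0.2 (0 called) or with scores scaled by their interquartile range, a factor of 1.25 (0 called). That scaling was chosen after seeing the data. Recentring on the median abundant gene left 1 member called, FOSL2, with JUNB at -0.23. At a limit of 0.1, and with adjustment over abundant genes, 2 were called; the latter leaves ATF3, EGR1, JUN and FOSL1 without a value. Recentring, the only one of these that alters fold changes, turned the sign of no member.

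The 8 called genes of the 7 lists became 4 at the limit of 0.01, 2 against 0.2 and 3 with scaled scores. Over all genes 940 calls became 622, 248 and 471, and 933 with recentring (500 higher and 433 lower, against 422 and 518). Averaging over all coding transcripts put the members' median ATTTA density at 1.23 per kb in place of 1.85, less than the spread among members.

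No paired analysis was possible because the table holds the authors' comparison and no values per library. For the same reason leaving out replicates, other count models and filters on counts were not run.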
